A study of Mus musculus with 12 samples.

Results

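Adenylyl cyclases and protein kinase A (PKA) were examined as a set of 10 genes, namely the cyclases Adcy1, Adcy2, Adcy5, Adcy6, Adcy8 and Adcy9, the PKA catalytic subunit Prkaca, and the PKA regulatory subunits Prkar1a, Prkar1b and Prkar2b. They were picked by name from the 37310 genes counted, and all 10 had enough counts to be tested in every comparison. The libraries come from ventral hippocampus (vHPC) of C57BL/6 mice that all carried a Cre-dependent GFP-L10a ribosomal fusion gene at Rosa26 and received a retrograde HSV-hEf1α-Cre virus in nucleus accumbens (NAc) 3 weeks before collection. Wild-type (WT) mice were compared with mice carrying floxed FosB alleles (FosB fl/fl), named FosB knockout (KO) in the labels, to ask which genes depend on FosB in NAc-projecting vHPC neurons. Each genotype gave 3 pools (3 mice per pool in the sample labels, 3 to 4 in the protocol). From each pool a library was prepared from RNA bound to GFP-tagged ribosomes (translating ribosome affinity purification, TRAP) and another from the tissue before purification (input). Pools are numbered 1 to 3 in WT and 2 to 4 in KO.

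Cre reached only neurons that took up the virus in NAc, so input also holds cells that kept FosB and lack the tag. The labels give no age. Whether fewer cells of a type or less RNA per cell lowers a gene in such bulk samples cannot be told apart.

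Adenylyl cyclases make cyclic AMP (cAMP) from ATP in the cell membrane, under the control of stimulatory and inhibitory G proteins coupled to neurotransmitter receptors. In the inactive PKA holoenzyme, a pair of regulatory subunits holds a pair of catalytic subunits, and cAMP binding to the regulatory subunits frees the catalytic subunits. In hippocampal neurons this pathway is known for its part in synaptic plasticity, memory and excitability, and for activating the transcription factor CREB.

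Each library held 3416030 to 5614089 counts on genes, where 3 counts correspond to 0.534 to 0.878 CPM (a gene's counts scaled to a common library total), a floor that covers counting error only. Genes of the mitochondrial genome held 0.0305% to 0.13% of these counts in TRAP and 5.29% to 9.05% in input. Fosb, the targeted gene, lay at 32.0 to 45.3 CPM in the WT TRAP libraries and 18.8 to 29.4 in KO TRAP, and at 22.3 to 30.3 in WT input and 14.9 to 17.1 in KO input, without overlap between genotypes. The log2 ratio of KO to WT was -0.76 in TRAP (0.590-fold, unadjusted p = 0.00126, adjusted p = 0.337 by edgeR's quasi-likelihood test) and -0.68 in input (0.625-fold, unadjusted p = 0.00557, adjusted p = 1.00). Fosb thus did not pass the threshold in either, its counts were not lost from KO TRAP, and the difference between both ratios was -0.08 (95% interval -0.71 to 0.54, unadjusted p = 0.791). These counts cover all annotated exons of Fosb, whereas the floxed allele loses only part of its exons to Cre. They therefore cannot show how complete the deletion was. From reads along the gene, the authors described FosB expression as nearly absent from the KO TRAP mRNA. Markers of glia were lower in TRAP than in input for 11 of 11 astrocyte, 11 of 11 oligodendrocyte and 10 of 10 microglial genes, and glutamatergic neuron markers were higher for 5 of 9 and lower for 1. Summed astrocyte markers lay at 347 to 441 CPM in the TRAP libraries and 2096 to 2569 in input, and summed glutamatergic markers at 8263 to 9842 and 6463 to 7414. GABAergic markers were lower in TRAP for 7 of 11 and higher for 1. Between KO and WT no marker gene tested passed the threshold, but no microglial or endothelial marker was high enough to test in TRAP. Of 5 dentate granule cell markers tested in input, 3 had an unadjusted p under 0.05, as did 3 of 9 glutamatergic, 1 of 11 GABAergic, 1 of 5 striatal neuron and 1 of 11 oligodendrocyte markers, against 2.89% of all genes. In TRAP these were 1 of 10 astrocyte, 1 of 10 GABAergic and 1 of 4 striatal markers, against 6.05% of all genes. The median log2 ratio of KO to WT in input was 0.64 for the granule cell markers, -0.07 for the glutamatergic ones and -0.67 for the striatal ones (-1.15 to -0.31), and the part of these markers in the results was not tested. For the granule cell markers, the summed level of all 6 listed was 333 to 441 CPM in KO input and 293 to 326 in WT input.

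Of the regulatory subunits, Prkar1b, a type I subunit found mainly in brain, was the most abundant of the 10 genes for its length. In WT TRAP it stood at 309 ± 28.7 CPM per kb of exon (SD, n = 3), above Prkar1a, the broadly expressed type I subunit, at 188 ± 5.45. Prkaca, which encodes the catalytic subunit Cα, followed at 131 ± 7.57. These 3 genes did not overlap one another or any other member in WT TRAP. The next 4 levels in CPM per kb lay close together, with Prkar2b, the neuronal type II subunit, at 21.0 ± 5.76, Adcy1 at 15.8 ± 4.27, Adcy5 at 14.4 ± 1.01 and Adcy9 at 13.6 ± 3.23, and no neighbour in that order differed beyond its spread. Adcy2 at 10.0 ± 1.10 overlapped Adcy9, and Adcy6 (3.32 ± 0.517) and Adcy8 (3.04 ± 0.834) overlapped each other, below all others. Per-length levels rest on the union of annotated exons, which is 3810 bases for Prkar1b, 4599 for Prkar1a and 12522 for Adcy1. With the mean length of coding transcripts (1230, 2511 and 12259 bases), the same 3 PKA genes led at 957 ± 89.0 (Prkar1b), 344 ± 9.99 (Prkar1a) and 141 ± 8.11 (Prkaca) CPM per kb, and Adcy5 at 16.5 and Adcy1 at 16.1 changed places.

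**Figure D1:**
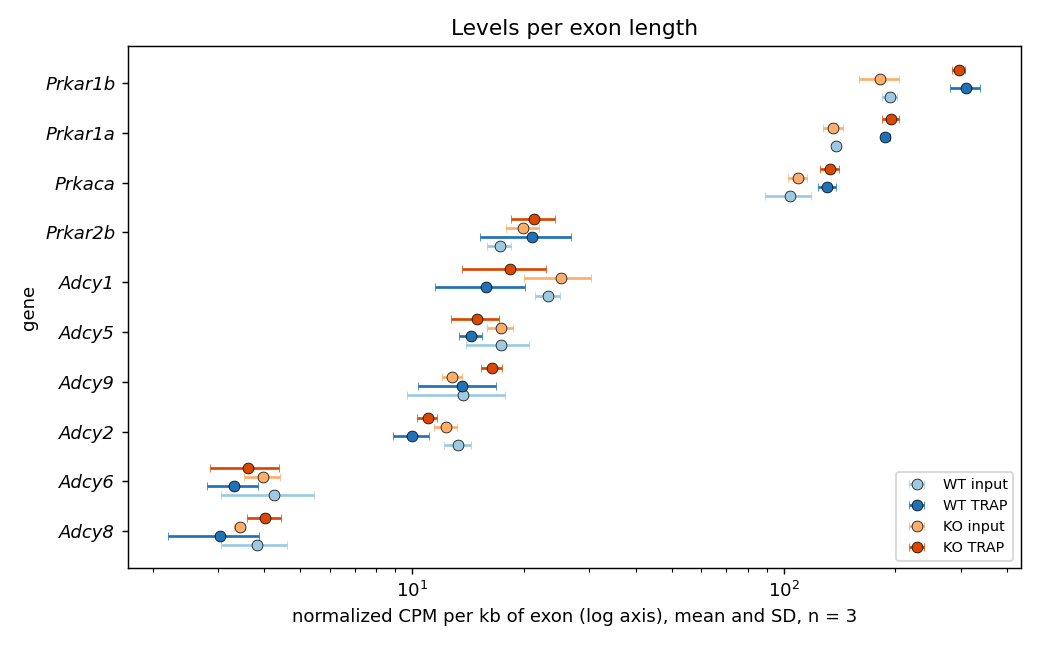
Levels of the 10 genes as normalized CPM per kb of exon on a log axis, with points for group means and bars for SD over 3 libraries, colored by genotype and TRAP or input. Prkar1b, Prkar1a and Prkaca lie at 104 to 309 CPM per kb in the 4 groups and the other 7 genes at 3.04 to 25.2.

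On mm9 the counted genes lie at chr11:109510719-109530970 (Prkar1a), chr8:86496877-86520344 (Prkaca), chr5:139493260-139625955 (Prkar1b) and chr12:32643341-32746161 (Prkar2b). The cyclases lie at chr11:6963492-7078509 (Adcy1), chr13:68758920-69138419 (Adcy2), chr16:35154963-35305823 (Adcy5), chr15:98420425-98438064 (Adcy6), chr15:64530604-64753858 (Adcy8) and chr16:4287529-4420498 (Adcy9). Counts cover all annotated exons of a gene, untranslated and coding.

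All 3 of these abundant PKA genes were more abundant in TRAP than in input. Prkar1b stood at 1123, 1105 and 1303 CPM in the WT TRAP libraries (pools 1, 2 and 3), 1180, 1097 and 1101 in KO TRAP (pools 2, 3 and 4). Input libraries gave 705, 734 and 770 CPM in WT and 788, 621 and 672 in KO. The lowest TRAP library was above the highest input library. Over both genotypes the log2 ratio of TRAP to input was 0.69 (SE 0.07, a 1.61-fold difference), with an adjusted p of 3.20e-09 by edgeR's quasi-likelihood test, Benjamini-Hochberg adjusted over 13214 genes.

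Prkar1a stood at 839, 860 and 889 CPM in the WT TRAP libraries and at 844, 935 and 902 in KO TRAP. Its input libraries held 625, 650 and 626 CPM in WT and 643, 581 and 655 in KO. Again no TRAP library reached down to an input library. The log2 ratio was 0.48 (SE 0.06, 1.39-fold, adjusted p = 2.64e-07 in the same test).

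Prkaca stood at 291, 298 and 324 CPM in the WT TRAP libraries and at 290, 310 and 325 in KO TRAP. Its input libraries held 202, 267 and 253 CPM in WT and 266, 236 and 252 in KO. The groups did not overlap, although the WT pool 1 input library was low. The log2 ratio was 0.32 (SE 0.07, 1.24-fold, adjusted p = 0.00117). Of 75-base stretches of Prkaca exons, 9.18% had another place in the genome at up to 2 mismatches, and reads from those may have gone uncounted. No such stretch was found for Prkar1a or Prkar1b, but 8.95% of the Prkar1b exon bases are shared with Gm15672, an overlapping gene on the same strand.

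Promoter windows of 250 bases before to 50 after a transcription start were read from RefSeq (GRCm38.p6, not the mm9 build of the counts). Of the 10 genes, 8 had entries, with 19 windows in all. AP-1 elements (TGACTCA or its reverse complement TGAGTCA), the letters bound by FosB dimers with Jun proteins, were in 0 of 19 windows, where 5.2% of all 32851 windows hold one. The CREB half-site (TGACG or CGTCA) was in 6 of 19 windows, from Adcy9, Prkaca, Prkar1a and Prkar1b, against 20.8% of all windows, and the full cAMP response element (TGACGTCA, which contains both half-sites) in 2 overlapping windows of Prkar1a, against 1.79%. Half-sites were in 3 of 6 windows of Prkar1a, 1 of 2 of Prkaca and 1 of 5 of Prkar1b. One window that holds a half-site is shown for each of these 3 PKA genes, which were higher in TRAP. The windows shown are on the strand of the gene, with half-sites in capitals. They lie at chr11:109650699-109650998 (plus strand), chr8:83972728-83973027 (plus strand) and chr5:139149952-139150251 (minus strand), and a match is a description of letters only.
Prkar1a: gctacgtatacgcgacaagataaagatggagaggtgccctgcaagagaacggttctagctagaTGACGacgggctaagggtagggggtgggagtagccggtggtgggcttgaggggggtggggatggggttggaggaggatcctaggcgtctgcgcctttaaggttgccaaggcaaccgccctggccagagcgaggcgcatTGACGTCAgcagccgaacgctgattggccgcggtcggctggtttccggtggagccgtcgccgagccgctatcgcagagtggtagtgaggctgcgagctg
Prkaca: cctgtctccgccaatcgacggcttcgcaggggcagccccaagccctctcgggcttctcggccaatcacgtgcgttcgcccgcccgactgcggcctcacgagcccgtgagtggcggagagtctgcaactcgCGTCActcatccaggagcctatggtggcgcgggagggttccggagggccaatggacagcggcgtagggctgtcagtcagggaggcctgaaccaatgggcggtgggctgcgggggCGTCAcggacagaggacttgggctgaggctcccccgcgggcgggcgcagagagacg
Prkar1b: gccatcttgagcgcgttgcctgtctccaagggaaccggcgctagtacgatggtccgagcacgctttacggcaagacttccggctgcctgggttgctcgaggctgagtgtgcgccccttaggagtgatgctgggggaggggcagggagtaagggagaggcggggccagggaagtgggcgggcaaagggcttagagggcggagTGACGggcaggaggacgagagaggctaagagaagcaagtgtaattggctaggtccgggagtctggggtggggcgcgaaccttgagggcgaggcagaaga

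Prkar2b was not called between TRAP and input. It stood at 96.6, 54.7 and 78.8 CPM in the WT TRAP libraries and at 88.4, 67.2 and 77.6 in KO TRAP. Its input libraries held 60.6, 59.5 and 68.1 CPM in WT and 73.4, 79.7 and 65.1 in KO. WT pool 2 was the lowest of the TRAP libraries, below every input library, and WT pool 1 the highest. The log2 ratio of 0.19 (SE 0.12, 95% interval -0.05 to 0.43, adjusted p = 0.191) did not pass the test, and it was 0.09 without WT pool 1 and 0.29 without KO pool 3.

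In counts, 6 of the 10 genes differed between TRAP and input over both genotypes at an adjusted p under 0.05, against 42.2% of all 13214 genes tested, so the share called is not far from the background. Of these, 3 PKA genes were higher (background 19.6%) and 3 cyclases lower (background 22.5%). TRAP and input did not overlap for 3 of the 10, where 22.5% of all genes did not. The median log2 ratio was 0.40 over the 4 PKA genes and -0.24 over the 6 cyclases, beside -0.01 over all genes. This order also followed exon length in part. Over all genes the median log2 ratio fell from 0.16 under 2 kb of exon to -0.21 over 6 kb, and 38.5% of genes over 6 kb were called lower. Adcy1, Adcy5 and Adcy6 have over 6 kb of exon, Adcy2 has 4211 bases and Prkaca 2315. Prkar1a, at 4599 bases, is longer than Adcy2 but had the higher ratio, and Adcy8 and Adcy9, at 5032 and 5197 bases, were not called. Length bins were looked at after the values were seen, and the part of length in these differences was not tested, nor was that of the glial markers.

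Adcy1, a calcium- and calmodulin-stimulated cyclase of neurons, was the cyclase with the lowest ratio of TRAP to input. It stood at 256, 153 and 183 CPM in the WT TRAP libraries and at 272, 162 and 252 in KO TRAP. Its input libraries held 289, 314 and 269 CPM in WT and 280, 277 and 390 in KO. The TRAP libraries split widely within each genotype, with WT pools 2 and 3 and KO pool 3 low, and the KO pool 2 TRAP library above the lowest WT input library. Over both genotypes the log2 ratio was -0.51 (SE 0.17, 0.702-fold, adjusted p = 0.0306 in the edgeR test). Without WT pool 2 it was -0.40 and the adjusted p 0.112, without WT pool 3 -0.51 and 0.0842, and without KO pool 4 -0.43 and 0.0684.

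Adcy2, a cyclase stimulated by G protein βγ subunits together with Gsα, stood at 41.0, 47.4 and 38.3 CPM in the WT TRAP libraries and at 48.9, 43.3 and 47.2 in KO TRAP. Its input libraries held 61.4, 54.4 and 52.4 CPM in WT and 53.0, 55.0 and 47.9 in KO. It was lower in TRAP in each of the 6 pools, while the KO pool 2 TRAP library was above the KO pool 4 input library. The log2 ratio was -0.28 (SE 0.11, 0.822-fold, adjusted p = 0.0334). This call was lost when any pool except WT pool 2 was left out, with ratios of -0.22 to -0.34 over all 6, and also with total counts in place of TMM (adjusted p = 0.0532) and with no filter (0.0769).

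Adcy5, the main cyclase of striatum and inhibited by calcium and by Gi, stood at 108, 93.5 and 102 CPM in the WT TRAP libraries and at 122, 94.1 and 97.2 in KO TRAP. Its input libraries held 106, 109 and 148 CPM in WT and 128, 110 and 126 in KO. WT pool 3 was the highest input library, and the groups overlapped. The log2 ratio was -0.24 (SE 0.10, 0.848-fold, adjusted p = 0.0488), and the call was lost without any one pool except WT pool 1, with ratios of -0.15 to -0.29. It was also lost in DESeq2 (adjusted p = 0.0634) and with total counts in place of TMM (adjusted p = 0.0861). Striatal neuron markers summed to 46.4 to 131 CPM in TRAP and 54.1 to 221 in input. The 221 belonged to the WT pool 3 input library, which also had the highest Adcy5, and the other 5 input libraries held 54.1 to 107. Without WT pool 3 the ratio of Adcy5 was -0.15 (adjusted p = 0.264 in the edgeR test), and the part of striatal RNA in it was not tested.

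The other 3 cyclases did not pass the test over both genotypes. Adcy6, a calcium-inhibited relative of Adcy5, lay at 16.9 to 26.0 CPM in TRAP and 19.0 to 33.2 in input (log2 ratio -0.24, 95% interval -0.58 to 0.10, and -0.10 without KO pool 3). Adcy8, which like Adcy1 is stimulated by calcium and calmodulin, lay at 12.8 to 22.1 CPM in TRAP and 15.9 to 23.6 in input (-0.04, interval -0.40 to 0.31). Adcy9, a widely expressed cyclase that is little affected by forskolin, lay at 52.2 to 91.6 CPM in TRAP and 54.2 to 94.6 in input (0.18, interval -0.08 to 0.44). Without WT pool 1, the ratio of Adcy9 was 0.31 with an adjusted p of 0.0395 in the edgeR test, and without WT pool 2 it was 0.03.

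**Figure D2:**
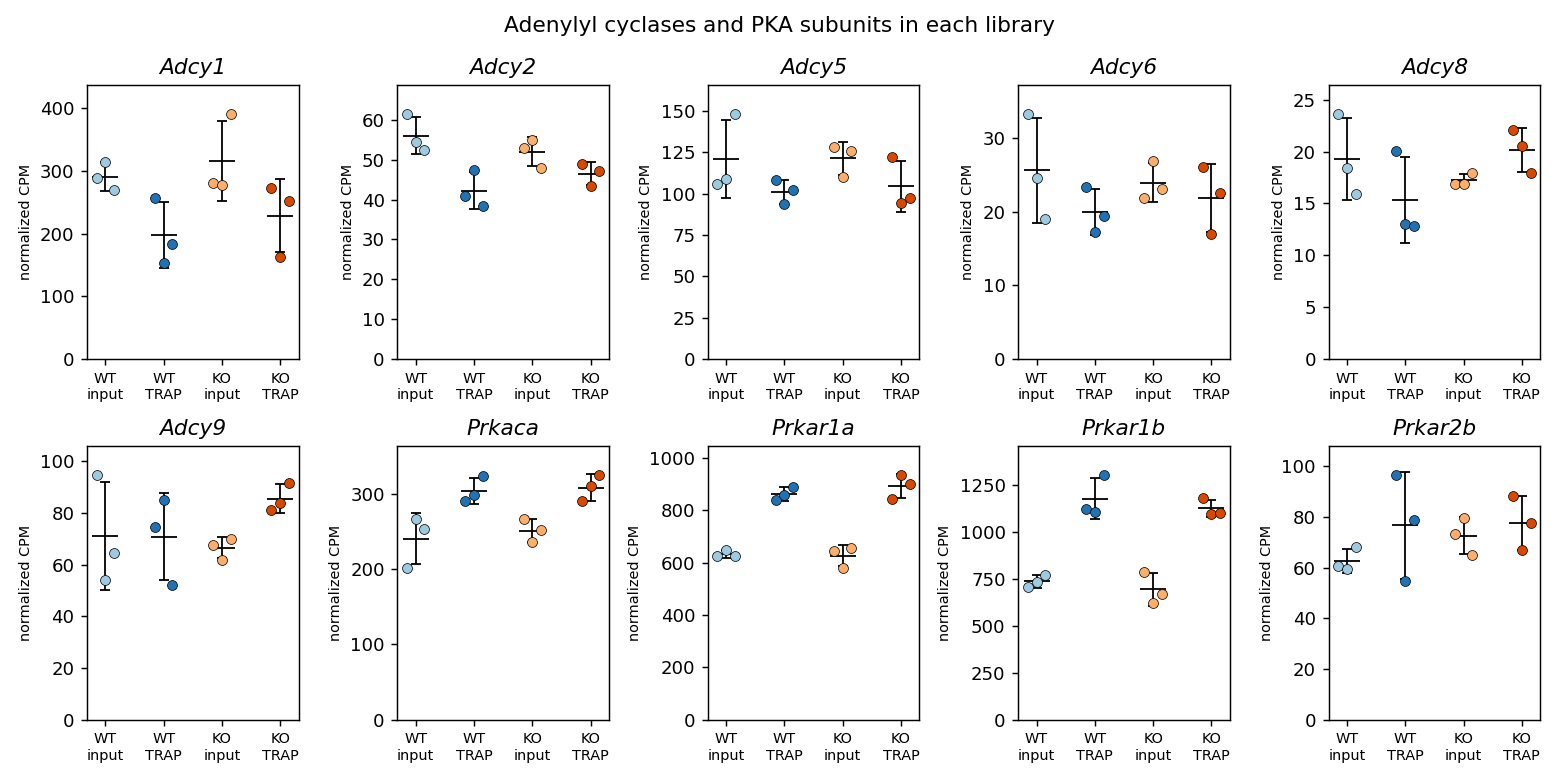
Normalized CPM of each gene in each of the 12 libraries on a linear axis from 0, in 4 groups by genotype and TRAP or input. Points are libraries, in order of pool number, and the black dash and bar are the mean and SD of 3. For Prkaca, Prkar1a and Prkar1b all TRAP libraries lie above all input libraries, while Adcy1 in TRAP ranges from 153 to 272 CPM.

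The same comparison was made within each genotype. In WT, 4 of the 10 genes passed the threshold (background 24.9%), with Adcy1 lower (background 13.1%, log2 ratio -0.55, adjusted p = 0.0164 in the edgeR test) and Prkaca (0.34, adjusted p = 0.0410), Prkar1a (0.45, adjusted p = 0.00142) and Prkar1b (0.68, adjusted p = 5.98e-05) higher (background 11.8%). In KO, 4 of 10 passed (background 29.1%), with Adcy9 (0.35, adjusted p = 0.0356), Prkaca (0.28, adjusted p = 0.0294), Prkar1a (0.50, adjusted p = 1.86e-04) and Prkar1b (0.69, adjusted p = 1.22e-05) higher (background 13.2%), and none lower (background 15.9%). Adcy1 in KO had a ratio of -0.48 with an adjusted p of 0.169, and with the pool as a block, pairing both libraries from the same mice, -0.49 with an adjusted p of 0.00331. It was also called with no filter on low counts (adjusted p = 3.10e-04), in DESeq2 (0.0285) and without KO pool 2 (-0.71, 0.0326). Adcy2 in WT did not pass (-0.40, adjusted p = 0.0900), although its 3 TRAP libraries lay below its 3 input libraries, as 40.1% of all genes did not overlap in WT.

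Leaving out 1 pool left 1 to 3 of these 4 calls in WT and 2 to 3 of the 4 in KO. The WT call of Prkaca was lost without any one of the 3 pools (adjusted p of 0.0517 to 0.256), as was the KO call of Adcy9 (0.0909 to 0.189), which was also lost in DESeq2 (0.0667) and in a fit of all 12 libraries (0.140). The 12-library fit also ended the WT call of Adcy1 (-0.56, adjusted p = 0.109) and gave one for Adcy2 in WT (0.0432), and without mitochondrial genome genes the WT call of Prkaca was lost (0.0524). Without WT pool 3 only Prkar1b was called in WT (Prkar1a at 0.42, adjusted p = 0.0826), Adcy1 also lost its WT call without WT pool 2 (-0.35, adjusted p = 0.151), and Prkaca its KO call without KO pool 3 (0.23, 0.108) or KO pool 4 (0.25, 0.223).

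Ratios of TRAP to input within a pool show how uniform the differences were. Prkar1b had log2 ratios of 0.67, 0.59 and 0.76 in WT pools 1 to 3 and 0.58, 0.82 and 0.71 in KO pools 2 to 4. Those of Prkar1a ran from 0.39 to 0.69 and those of Prkaca from 0.13 to 0.52, positive in 6 of 6 pools. Adcy1 was negative in 6 of 6 pools but ranged from -0.04 (KO pool 2) to -1.04 (WT pool 2), and Adcy2 ranged from -0.02 to -0.58.

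Signs were mixed for the remaining 5 genes. Adcy8 was at -0.22, -0.49 and -0.31 in WT and 0.38, 0.27 and 0.00 in KO. Adcy9 was at -0.34, 0.65 and -0.30 in WT and 0.26, 0.43 and 0.39 in KO. The difference of the TRAP to input ratio between KO and WT was tested in one fit of the 12 libraries, where 0 of 10 genes passed (background 0.00757%). Adcy8 had a difference of 0.54 (SE 0.35, 95% interval -0.17 to 1.25, unadjusted p = 0.132) and Adcy9 of 0.36 (SE 0.25, interval -0.16 to 0.88, unadjusted p = 0.162), each with an adjusted p of 1.00 in edgeR's quasi-likelihood test. The difference for Adcy9 was 0.11 without WT pool 1 and 0.67 without WT pool 2. No gene of the 10 had an unadjusted p under 0.05, against 2.71% of all genes, and DESeq2 also called 0 of 10.

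**Figure D3:**
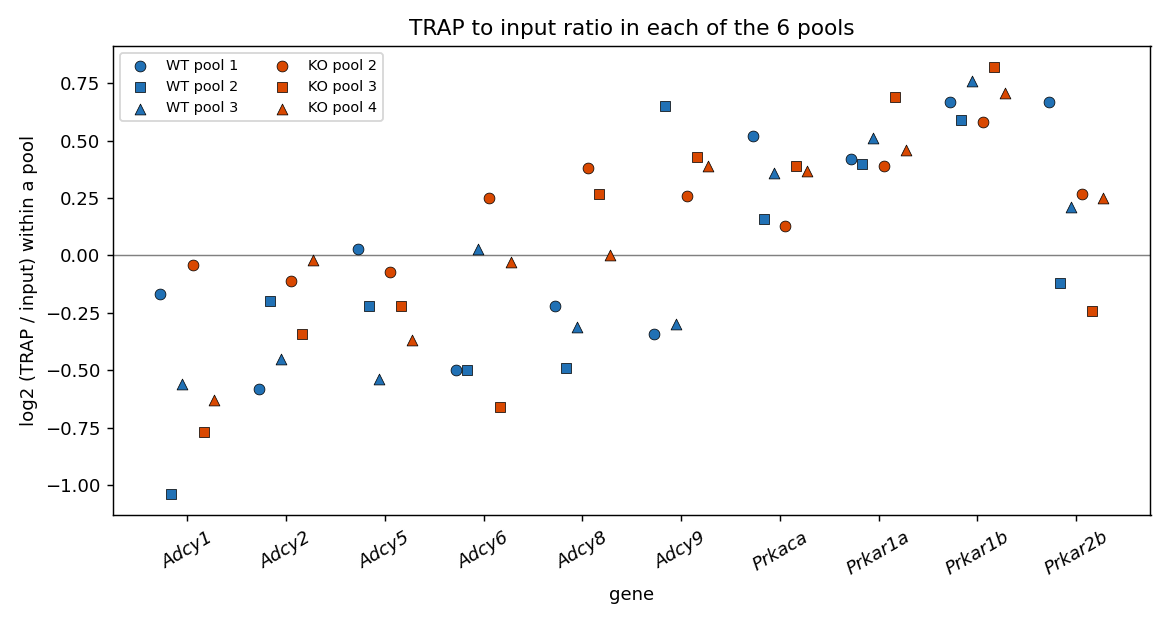
Log2 ratio of TRAP to input CPM within each of the 6 pools, with 1 symbol per pool, WT blue and KO orange. Prkaca, Prkar1a and Prkar1b are above 0 in all 6 pools, Adcy1 and Adcy2 below 0 in all 6, and Adcy8 is below 0 in the 3 WT pools and at 0.00 to 0.38 in the KO pools.

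**Figure D4:**
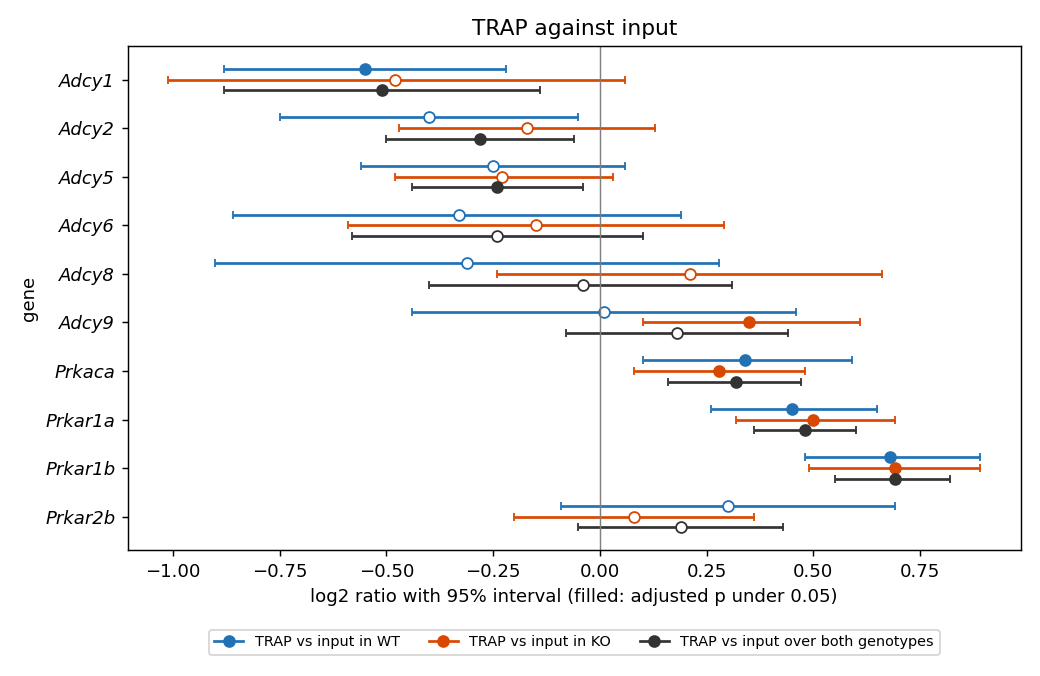
Log2 ratio of TRAP to input for the 10 genes with 95% intervals for WT, for KO and for both genotypes together, with filled points where the adjusted p was under 0.05. Prkar1b, Prkar1a and Prkaca have filled points above 0 in all 3 fits, and Adcy1, Adcy2 and Adcy5 filled points below 0 over both genotypes.

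No difference between KO and WT was detected for any of the 10 genes. In TRAP, 0 of 10 passed the threshold by edgeR's quasi-likelihood test (background 0.0682%, 8 of 11727 genes), 0 had an unadjusted p under 0.05 (background 6.05%), and 0 by DESeq2. KO and WT libraries overlapped for all 10 genes (11.9% of all genes did not overlap). The 4 PKA genes had log2 ratios of KO to WT from -0.06 to 0.05, with a median of 0.02, and the 6 cyclases from 0.04 to 0.38, with a median of 0.17, beside 0.00 over all genes. The intervals were narrow for the abundant PKA genes, at -0.24 to 0.11 for Prkar1b, -0.12 to 0.22 for Prkar1a and -0.17 to 0.21 for Prkaca.

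Adcy8 and Adcy9 had the highest ratios of KO to WT in TRAP. Adcy8 stood at 20.1, 13.0 and 12.8 CPM in the WT TRAP libraries and 22.1, 20.5 and 17.9 in KO TRAP, on 48 to 113 counts per library. Only WT pool 1 reached the KO range. The log2 ratio was 0.38 (SE 0.26, 95% interval -0.16 to 0.93, unadjusted p = 0.158, adjusted p = 0.883 in the edgeR test), and 0.65 without WT pool 1.

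Adcy9 stood at 74.7, 85.1 and 52.2 CPM in the WT TRAP libraries and 81.1, 83.8 and 91.6 in KO TRAP, where WT pool 3 was low and WT pool 2 lay within the KO range. Its log2 ratio was 0.27 (SE 0.15, interval -0.04 to 0.59, unadjusted p = 0.0891, adjusted p = 0.853). Without WT pool 3 it was 0.10, and without WT pool 2 it was 0.43. For Adcy1 the wide spread in TRAP left an interval of -0.54 to 0.96 around a ratio of 0.21. That ratio was 0.06 without WT pool 2 and 0.45 without WT pool 1.

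In input, 0 of 10 genes passed between KO and WT (background 0.0312%), 0 had an unadjusted p under 0.05 (background 2.89%), 0 passed in DESeq2, and the groups overlapped for all 10 (8.38% of all genes did not). Log2 ratios ran from -0.15 for Adcy8 (interval -0.64 to 0.33) to 0.21 for Prkar2b (interval -0.09 to 0.52). For Adcy8 and Adcy9, the ratios in input were -0.15 and -0.09, where those in TRAP were 0.38 and 0.27. TRAP and input of a genotype come from the same mice.

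**Figure D5:**
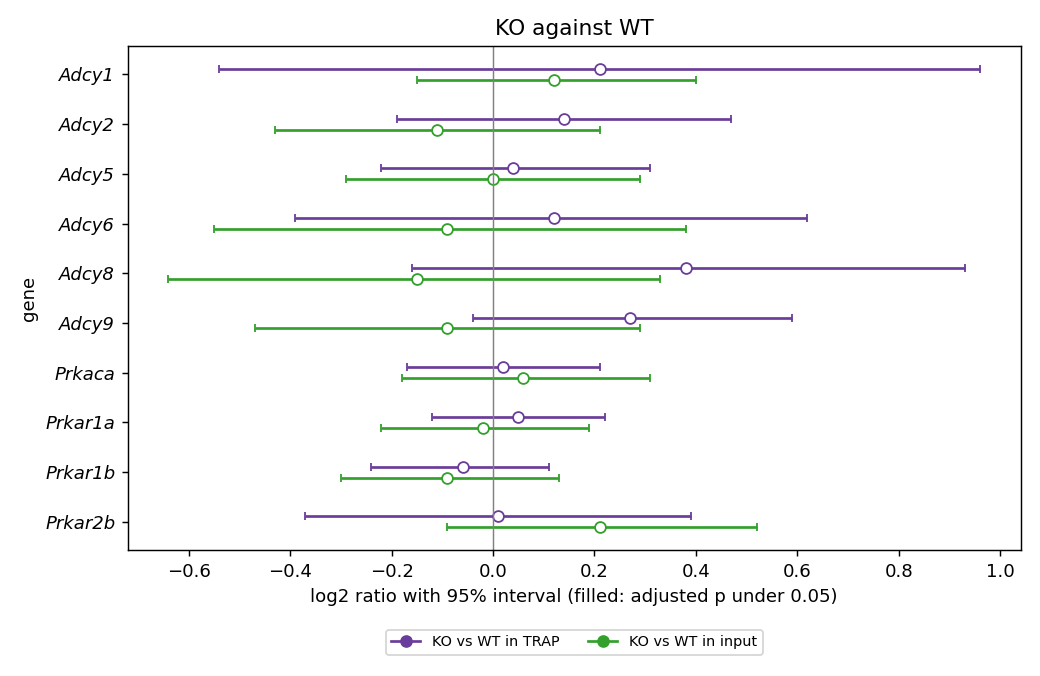
Log2 ratio of KO to WT for the 10 genes in TRAP and in input, with 95% intervals. All points are open (adjusted p not under 0.05) and all intervals include 0, from the narrow intervals of Prkaca, Prkar1a and Prkar1b to the wide one of Adcy1 in TRAP.

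The balance between the member genes was compared as ratios of CPM per kb within a library, with 4 ratios in 3 comparisons, hence 12 tests. These ratios leave out 2 expressed PKA genes that are not members. In WT TRAP the catalytic subunit gene Prkacb stood at 104 ± 25.2 CPM per kb and the type II regulatory subunit gene Prkar2a at 20.9 ± 1.35. The ratios therefore do not give the balance of all PKA subunits. Per kb, Prkar1b stood at 1.65 ± 0.11 times Prkar1a in TRAP of WT and 1.53 ± 0.14 in TRAP of KO, and at 1.40 ± 0.075 and 1.34 ± 0.13 in the respective input libraries (SD, n = 3). On the log2 scale the ratio was 0.21 higher in TRAP than in input, between 0.13 and 0.25 in all 6 pools (exact sign-flip p = 0.03125, adjusted over the 12 tests 0.188). Prkaca per kb, set against the 3 regulatory subunits together, was 25.4% ± 0.70 in TRAP of WT and 26.1% ± 1.8 in TRAP of KO, and 29.8% ± 3.6 and 32.2% ± 0.78 in the respective input libraries. It was lower in TRAP in 6 of 6 pools (-0.26 on the log2 scale, exact p = 0.03125, adjusted p 0.188). No ratio passed the adjustment, and with 6 pools none could. These levels depend on the length used. With the mean length of coding transcripts Prkar1b stood at 2.78 ± 0.19 times Prkar1a in TRAP of WT, and Prkaca was 10.6% ± 0.29 of the regulatory subunits there and 12.7% ± 1.5 in WT input. The differences between TRAP and input were then 0.21 and -0.30 on the log2 scale.

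Prkar2b made up 3.04% to 5.25% of the 3 regulatory subunits in the TRAP libraries and 4.65% to 7.02% in input, with the TRAP value lower in 5 of 6 pools (-0.41, exact p = 0.0625, adjusted p 0.25). With the coding transcript length its mean share was 2.29% in TRAP of WT. Adcy1 and Adcy8, the calcium-stimulated cyclases, made up 25.2% to 36.1% of the 6 cyclases per kb in TRAP and 33.4% to 42.7% in input (-0.23, exact p = 0.125, adjusted p 0.3). Their difference was -0.29 without WT pool 1 and -0.14 without WT pool 2. Between KO and WT, 3 pools against 3 cannot give an exact two-sided p under 0.10, and that was reached only for the share of Prkar2b in input (0.26, exact p = 0.1, adjusted p 0.3). This difference was 0.13 without KO pool 3 and 0.33 without KO pool 4.

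The rest of the pathway was read from lists of related genes. Of 7 other cyclase and PKA genes, 4 could be tested. Prkacb, the other main catalytic subunit of PKA in brain, averaged 570 ± 137 CPM in the WT TRAP libraries and 489 ± 12.4 in WT input, and at 614 ± 79.5 and 533 ± 48.7 in KO (SD, n = 3). Between TRAP and input the log2 ratio was 0.21 (adjusted p = 0.0997 in the edgeR test, 0.0320 when the pool entered as a block, 0.0111 with no filter, and 0.00285 at a ratio of 0.30 without WT pool 2). Prkx, a PKA-related kinase, was lower in TRAP (-0.98, SE 0.28, adjusted p = 0.00578), on 7 to 61 counts per library, and without KO pool 2 its ratio was -0.70 (adjusted p = 0.0547). Prkar2a, the widely expressed type II regulatory subunit, had a ratio of 0.02 (adjusted p = 0.870), and Adcy3, a cyclase of olfactory neurons and of primary cilia, of -0.09 (adjusted p = 0.676). Adcy4, Adcy7 and Adcy10 were too low to test, at 0 to 22 counts per library.

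Adcy3 had the largest difference between KO and WT among the cyclases tested. It stood at 33.7 to 43.8 CPM in the WT TRAP libraries and 12.3 to 25.5 in KO TRAP, without overlap (log2 ratio -1.03, SE 0.23, 95% interval -1.50 to -0.56), but the adjusted p was 0.110 by edgeR's quasi-likelihood test. The adjusted p was 0.00176 with no filter on low counts and 0.0362 without WT pool 2 (ratio -1.13), and it ranged up to 0.522 under the other alternatives. In input its ratio was -0.51 (interval -0.88 to -0.14, adjusted p = 1.00), again without overlap. Prkar2a was 0.29 higher in KO TRAP on the log2 scale (interval 0.04 to 0.54, adjusted p = 0.775), at 103 to 111 CPM against 82.5 to 93.7.

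No gene of any of these lists passed between KO and WT in TRAP or input. Between TRAP and input over both genotypes, where 19.6% of all genes were higher and 22.5% lower, 6 of 11 G protein subunits and cyclase regulators were higher and 2 lower. Gnas, which encodes the stimulatory Gsα (log2 ratio 0.60, adjusted p = 9.64e-04 in the edgeR test), and Gnaz, an inhibitory α subunit (0.57, adjusted p = 8.04e-07), were among the higher ones. So were Cap2 (0.94) and Cap1 (0.56), which encode cyclase-associated, actin-binding proteins. The median of this list was 0.45.

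Among PKA inhibitors and A-kinase anchoring proteins, which tether PKA to sites in the cell, 7 of 15 were lower in TRAP and 1 higher, with a median of -0.50. The lowest were Akap13 (-1.74), Akap12 (-1.43), Akap7 (-1.37) and Akap9 (-1.31). Of 16 gene entries of phosphodiesterases, the enzymes that break down cAMP, among them 2 entries of Pde4d that were both lower, 8 were lower and 2 higher, with a median of -0.26. Pde8a (-2.23), Pde3a (-1.69), Pde3b (-1.52) and Pde1c (-1.35) had the lowest ratios. The call of Pde3a was lost without WT pool 3 (-1.15, adjusted p = 0.111) and that of Pde1c without WT pool 2 (-0.98, 0.0645) or KO pool 4 (-1.11, 0.0664).

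Of 18 other cAMP effectors and CREB-related genes tested, 3 were higher and 5 lower, with a median of -0.17. Crtc1, a coactivator of CREB, was higher (0.85, adjusted p = 2.19e-10 in the edgeR test), and Crebbp, the CREB-binding protein, was lower (-0.60, adjusted p = 9.49e-08). The cAMP-activated exchange factors Rapgef3 (-1.51, adjusted p = 8.13e-06) and Rapgef4 (-0.78, adjusted p = 1.63e-07) were lower as well. The 19.6% of all genes called higher and 22.5% called lower are the background of each of these lists, and the part of the lower glial markers in TRAP was not tested.

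The most similar profile over the 12 libraries was found for each gene among the 13204 other genes tested, by Pearson's r of log2 CPM, as a description of libraries that share tissue, virus and depth. Those of the abundant PKA genes followed Gpi1 (Prkar1a, r = 0.987), Syn2 (Prkar1b, r = 0.981) and Copg (Prkaca, r = 0.978). For Prkar2b it was Fstl4 (r = 0.904). Among cyclases it was Steap2 for Adcy1 (r = 0.966), Akna for Adcy2 (r = 0.927), 2810021J22Rik for Adcy6 (r = 0.919) and Tmem132c for Adcy5 (r = 0.882). Trim41 was nearest to Adcy8 (r = 0.870), and Adra2a, which encodes the α2A-adrenergic receptor, to Adcy9 (r = 0.863). Each r is the highest of 13204 over only 12 libraries, so selection alone raises it. No link between any of these genes was tested.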

How the data were processed

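RNA-Seq of 12 libraries (3 WT TRAP, 3 KO TRAP, 3 WT input, 3 KO input) was used. The authors deposited raw counts per gene for each library, which they obtained with HTSeq-count on the Gencode vM1 annotation from TopHat alignments on mm9. Reads with several alignments (3438372 to 6518589 alignments per library) were set aside, 20.6% to 27.1% of the remainder fell on no gene, and the strand setting is not given in the sources used here. Strain, genotype and pool number come from the sample labels, where a title without "input" was read as TRAP. Replicates are pools of mice, so p-values measure the spread between pools.

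Tests used edgeR 4.0.16 in R 4.3.3 (default filter by group, TMM, robust quasi-likelihood test), with p-values adjusted by Benjamini-Hochberg over all genes tested, with a threshold of 0.05. Groups of 3 were fitted for each comparison, and all 12 libraries for TRAP against input over both genotypes and for its difference between genotypes. CPM was scaled by TMM over the 12 libraries, with a prior count of 2 on the log2 scale, and divided by the union of exons for levels per kb. Ratios of subunits were compared by exact permutation tests, two-sided. Exon stretches of 75 bases were aligned to mm9 with minimap2 2.31 to find near-identical copies. Alternatives were RLE, total counts, no filter, a mean of at least 10 counts, no mitochondrial genome genes, DESeq2 1.42.0, a fit of all 12 libraries, a block and leaving out each pool. TRAP and input of one number come from the same mice by the labels, and their deviations from group means correlated at 0.058 to 0.106. Between libraries of a group, 0.853% to 2.07% of genes had identical counts.

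The members and lists were chosen with earlier results of these data known. All 10 members and the 7 other cyclase and PKA genes are named, and from each other pathway list up to 4 genes called over both genotypes with the largest log2 ratio of TRAP to input. Markers of astrocytes, oligodendrocytes, microglia, and glutamatergic, GABAergic, striatal and dentate granule neurons were summed as CPM.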

Additional observations from a re-analysis of the deposited data

How the results depend on the processing

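With 3 pools per group and single genes on as few as 48 counts, small differences between KO and WT could not be detected. The calls of Prkaca, Prkar1a and Prkar1b over both genotypes held under all 13 alternatives (highest adjusted p of 0.00700, 2.02e-05 and 3.66e-07 in the edgeR and DESeq2 fits), while those of Adcy1, Adcy2 and Adcy5 did not. No alternative called any of the 10 genes between KO and WT. Scaling moved no median of all genes by more than 0.1. The cause of changed values was not tested.

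Over all genes, KO against WT in TRAP gave 8 calls, 41 with no filter and 13 with DESeq2, and in input 4, against 19 with no filter, 8 with DESeq2 and 7 in a fit of all 12 libraries. Leaving out the mitochondrial genome genes gave -0.01 for Adcy9 in WT TRAP against input. The numbers 2 and 3 that KO and WT share stand for different mice (correlations of -0.069 to 0.003). With them as a replicate block, KO against WT in input gave 20 calls, and log2 ratios of -0.06 for Adcy1, 0.02 for Adcy2, 0.17 for Adcy6, 0.13 for Adcy9, -0.05 for Prkaca and -0.03 for Prkar2a, and in TRAP -0.05 for Prkaca, 0.73 for Adcy8, 0.23 for Prkar2b, 0.33 for Adcy1, 0.20 for Adcy6, 0.14 for Adcy5, 0.02 for Prkar1a and -0.80 for Prkx, none of them called. In that block, WT pool 1 and KO pool 4 have no partner of the other genotype, so its KO to WT ratios rest on pools 2 and 3. For TRAP against input, where the block pairs libraries of the same mice, it changed no call of the 10 genes other than that of Adcy1 in KO.

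Leaving out each pool in turn gave these lowest and highest values. KO against WT in TRAP gave 5 to 20 calls over all genes, and log2 ratios of -0.08 to 0.12 for Adcy5, -0.02 to 0.28 for Adcy6, -0.02 to 0.07 for Prkaca, -0.10 to 0.02 for Prkar1b, -0.17 to 0.22 for Prkar2b, -0.07 to 0.23 for Prkacb and -0.60 to 0.06 for Prkx. In input there were 1 to 5 calls, with -0.06 to 0.21 for Adcy1, -0.27 to 0.14 for Adcy6, -0.28 to 0.02 for Adcy8, -0.25 to 0.17 for Adcy9, -0.04 to 0.15 for Prkaca, -0.05 to 0.04 for Prkar1a and -0.10 to 0.15 for Prkx. TRAP against input gave 1 to 3 member calls and 1289 to 3243 over all genes in WT (Adcy9 at -0.32 to 0.23), 2 to 4 and 1982 to 3181 in KO (Adcy6 at -0.36 to 0.09, Prkar2b at -0.02 to 0.24), and 3 to 6 member calls over both genotypes (Adcy8 at -0.08 to 0.03, Adcy3 at -0.14 to 0.01, Prkar2a at -0.02 to 0.10). The difference between genotypes gave 0 to 1 calls over all genes, with -0.15 to 0.29 for Adcy1, -0.12 to 0.14 for Adcy5, -0.01 to 0.45 for Adcy6, -0.14 to 0.02 for Prkaca, -0.03 to 0.11 for Prkar1a and -0.04 to 0.07 for Prkar1b. Between KO and WT, the share of Prkar2b in TRAP ran from -0.12 to 0.27, Prkaca to the regulatory subunits in TRAP from -0.01 to 0.09, and the share of Adcy1 and Adcy8 from -0.07 to 0.19 in TRAP and -0.01 to 0.16 in input, on the log2 scale.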
